A study of Mus musculus with 24 samples.

Results

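The 38 genes described here encode the enzymes of glycolysis from the hexokinases to pyruvate kinase, the lactate step, the entry of pyruvate into mitochondrial metabolism and the pentose phosphate pathway. They were taken by their gene symbols from a count table of 17696 genes, and all 38 were listed in it. The table held 24 RNA-seq libraries of MIN6 cells, a mouse β cell insulinoma line, in 6 groups of 4. The Scr line carried the scrambled miRZip-000 lentiviral vector, the ZIP line the anti-miR vector miRZip-146a, and the OE line a shMIMIC lentiviral vector expressing miR-146a. Each line was sequenced untreated and after 24 h with IL-1β (5 ng/ml), IFNγ (100 ng/ml) and TNFα (10 ng/ml), written below as Scr+Cy, ZIP+Cy and OE+Cy. All cells were selected with puromycin, cultured in high-glucose medium and grown from picked clones, so a difference between lines cannot be told apart from a difference between clones. Scr and ZIP shared a vector type with a green fluorescent reporter, whereas OE had another backbone with a red one. In these bulk libraries, fewer cells of a type and less RNA per cell cannot be told apart.

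Glycolysis splits glucose into pyruvate in the cytosol. In most cells pyruvate is either reduced to lactate by lactate dehydrogenase and exported by monocarboxylate transporters, or it enters mitochondria, where the pyruvate dehydrogenase complex turns it into acetyl-CoA and pyruvate carboxylase into oxaloacetate. The pentose phosphate pathway branches off at glucose 6-phosphate and supplies NADPH and ribose. Mature β cells are known for routing nearly all pyruvate into mitochondria, and they keep lactate dehydrogenase A (Ldha), the monocarboxylate transporter MCT1 (Slc16a1) and the high-affinity hexokinases Hk1 and Hk2 low. Cultured insulinoma lines relax this pattern to different degrees.

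The microRNA that distinguished the lines was miR-146a-5p, which was not itself counted in these libraries. Its mature sequence in RefSeq (GRCm38.p6, chr11:43374435-43374456, minus strand) is shown with the seed, bases 2 to 8, in capitals:
mmu-miR-146a-5p: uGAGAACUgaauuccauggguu
A perfect match to this seed, AGTTCTC, stood in the longest annotated 3′ UTR (GENCODE M21) of 3 of the 38 members, or 7.89%, and of 1862 of 15446 genes of the table with such a UTR, or 12.1%. The 3 members were Hk2, Aldoc and Slc16a3, shown here with the match in capitals:
Hk2: atttgtttcaAGTTCTCactgcataga
Aldoc: agagtgggccAGTTCTCctccatctct
Slc16a3: tagttcttacAGTTCTCatgttatgga
A match of letters is a description of the sequence, and no binding was measured.

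Levels are given as CPM, counts scaled to a common library size, after TMM scaling, which divides each library by its effective total, as mean ± SD over the 4 libraries of a group, or library by library in the order of replicates 1 to 4. Library totals ran from 26657792 to 37168232 estimated counts, with a median of 30701023. Differences are log2 fold changes with their standard error from edgeR's quasi-likelihood test over all 17696 genes, called at a Benjamini-Hochberg adjusted p under 0.05 with no limit on size. Nothing in the labels says that the 4 libraries of a group came from separate cultures, so the p-values measure the spread between these libraries, which may be technical. Of 15 β cell markers all were listed, and their summed level ran from 28252 to 55714 CPM over the 24 libraries, against at most 4.52 CPM for the leukocyte and 0.210 CPM for the acinar markers listed. The 4 ductal markers Krt7, Krt19, Sox9 and Spp1 summed to 426 to 636 CPM in the 8 OE libraries and to at most 16.7 CPM in the other 16. Krt7, Krt19 and Spp1 were called higher in OE than in Scr, whereas Sox9 was not. Sox9 was called lower in OE+Cy than in Scr+Cy. Fibroblast markers such as Col1a1 and Col3a1 summed to 18.9 CPM in Scr 1, 54.0 in ZIP 1 and 58.7 in Scr+Cy 1, and to at most 7.95 CPM elsewhere. Endothelial markers reached at most 4.62 CPM, and hormones and markers of the other islet cell types ran from 9.09 to 369 CPM. The part of these markers in the results below was not tested. Counts without the 3 libraries richest in fibroblast markers, a setting chosen after the data had been seen, stand beside those with all.

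Without cytokines, the OE line had less Ldha and Slc16a1 and less of 4 of the 13 enzymes from Gpi1 to Pkm than Scr, and the ZIP line had 8 members called. In OE against Scr, 10 members were lower and 6 higher, out of 38. Over all genes 25.6% were lower and 24.5% higher in this comparison, so the share of lower members, 26.3%, was near the background. Without the 3 libraries with fibroblast markers, 9 were lower and 6 higher. The median log2 fold change was -0.21 over the members and 0.00 over the 9738 genes with a mean of at least 10 CPM. The largest differences were in Ldha (-2.84 ± 0.52), Slc16a1 (-2.56 ± 0.21) and Aldoc (-1.14 ± 0.26), all lower. In ZIP against Scr, 6 members were higher and 2 lower, against 13.5% and 14.8% of all genes. Hk1 (-1.02 ± 0.26) and Taldo1 (-0.16 ± 0.055) were the lower ones, and none of the 13 enzymes from Gpi1 to Pkm was called. Without the 3 libraries the counts were 4 higher and 1 lower, Hk2, Dld and Taldo1 being lost.

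Cytokines lowered many glycolytic genes in the OE and ZIP lines. In OE+Cy against OE, 18 of the 38 members fell and 5 rose, against 21.5% and 23.0% of all genes. The share that fell was 47.4%, above the background, and the share that rose, 13.2%, was below it. In ZIP+Cy against ZIP, 15 members, or 39.5%, fell and 5 rose, against 12.8% and 13.6% of all genes. In Scr+Cy against Scr only 4 fell (Pfkm, Eno2, Ldhb and Pdha1) and 4 rose (G6pdx, Pgd, Me1 and Mpc1), against 7.33% and 10.5%, shares close to the 10.5% of members on each side. Without the 3 libraries with fibroblast markers, 18 fell in OE+Cy, 11 in ZIP+Cy and 3 in Scr+Cy, and the counts of members that rose were 5, 5 and 4. The count in Scr+Cy depended on the fit. Libraries with the same replicate number share a code in their titles, and they deviated together in Scr and Scr+Cy. A fit of these 8 libraries with the number as a replicate block called 19 members lower and 6 higher. In that fit 14.5% of all genes were called lower and 16.6% higher. The block over all 24 libraries gave 5 lower and 5 higher, and the 8 libraries without a block 3 lower and 4 higher. The fit with both changes was chosen after the data had been seen. The 15 members it added to the lower side included Pfkl, Tpi1, Pgk1, Pgam1, Eno1, Ldha, Slc16a3 and Pdk1. For ZIP+Cy against ZIP the same kind of fit called 22 lower and 7 higher, against 18.4% and 18.2% of all genes.

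**Figure D1:**
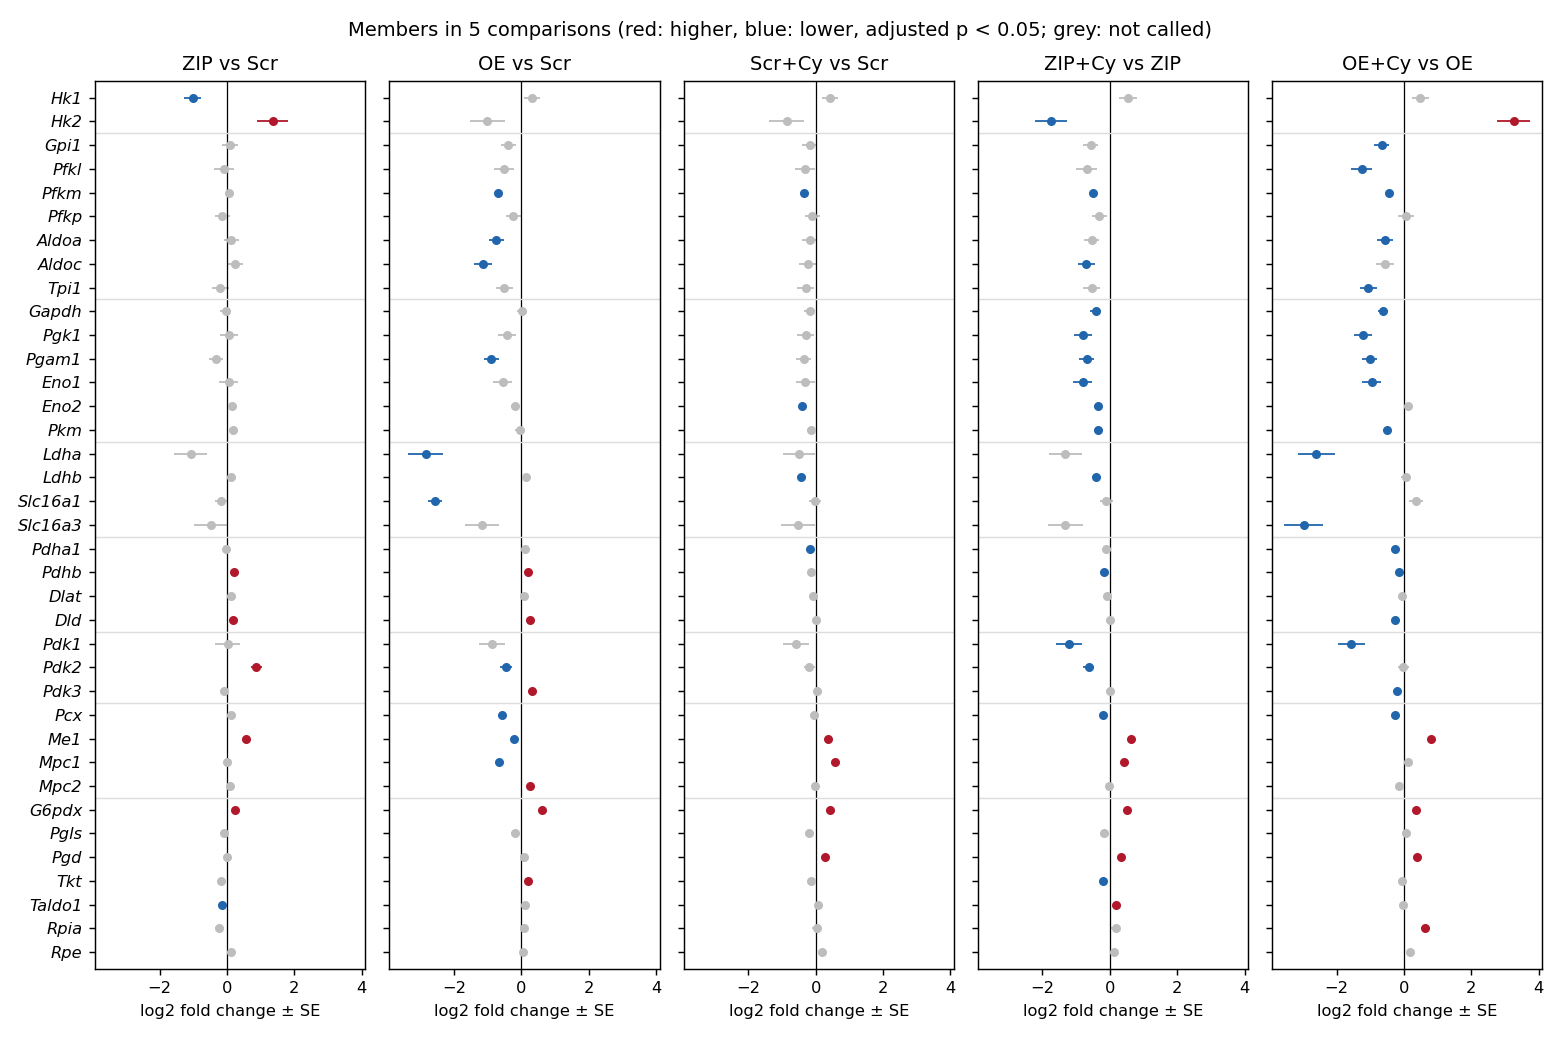
Log2 fold change ± SE of 37 members (Pdk4, nearly unread, is left out) in the 5 comparisons, by role from the hexokinases at the top to the pentose phosphate enzymes at the bottom; red points are called higher, blue points lower and grey points are not called. The lactate genes Ldha and Slc16a3 lie farthest to the left in OE+Cy against OE, at -2.60 and -2.98, while G6pdx, Pgd and Me1 lie to the right of 0 in all 3 cytokine comparisons.

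Ldha encodes the muscle-type subunit of lactate dehydrogenase and lies at chr7:46845804-46855627 on the plus strand of GRCm38. Its level in Scr was 952, 277, 458 and 834 CPM in the 4 libraries, in ZIP 280.1, 232, 433 and 246 CPM, and in OE 15.4, 108, 97.9 and 130.3 CPM. All 4 OE libraries lay below every Scr and ZIP library, and OE 1 lay far below the other OE libraries. After cytokines the values were 698, 170, 289.9 and 626 CPM in Scr+Cy, 158, 88.2, 82.2 and 149.7 CPM in ZIP+Cy and 6.32, 20.2, 12.9 and 18.3 CPM in OE+Cy. The OE+Cy libraries were thus the lowest of the series, apart from OE 1, which lay between the OE+Cy values. Ldha was 7.17-fold lower in OE than in Scr (log2 fold change -2.84 ± 0.52 SE, edgeR adjusted p = 6.3e-05) and 6.08-fold lower in OE+Cy than in OE (log2 fold change -2.60 ± 0.54 SE, edgeR adjusted p = 0.00032). Without OE 1 these differences were -2.49 ± 0.46, adjusted p = 0.0001, and -2.95 ± 0.46, adjusted p = 1.4e-05. In ZIP the Ldha difference from Scr was not called (log2 fold change -1.08 ± 0.49 SE, edgeR adjusted p = 0.1), although it was lower under all 4 numbers and was called in a fit of these 8 libraries with the replicate block (-0.96, adjusted p = 0.0082). ZIP+Cy against ZIP missed the threshold (log2 fold change -1.32 ± 0.49 SE, edgeR adjusted p = 0.051), and the replicate block within these 8 libraries gave -1.31 with an adjusted p of 0.00035. In Scr+Cy against Scr the values were -0.50 ± 0.48 with an adjusted p of 0.55, and -0.54 with an adjusted p of 1.3e-07 with the block.

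Slc16a3 encodes MCT4, the monocarboxylate transporter that exports lactate from strongly glycolytic cells, and lies at chr11:120948484-120959000, plus strand. Its levels were 320.3, 80.5, 143 and 257 CPM in Scr, 146, 93.7, 216 and 118 CPM in ZIP and 15.6, 105, 107 and 128 CPM in OE. These 3 groups overlapped. With cytokines it read 226, 47.4, 93.2 and 187 CPM in Scr+Cy, 80.9, 39.1, 39.7 and 69.8 CPM in ZIP+Cy and 4.13, 17.8, 9.73 and 13.5 CPM in OE+Cy. Every ZIP+Cy library was below every ZIP library, and 3 of the 4 OE+Cy libraries were below OE 1, which was itself far below the other OE libraries. Slc16a3 fell 7.87-fold in OE+Cy against OE (log2 fold change -2.98 ± 0.58 SE, edgeR adjusted p = 0.00017), and without OE 1 the value was -3.33 ± 0.51, adjusted p = 1.1e-05. Its untreated difference between OE and Scr was not called (log2 fold change -1.17 ± 0.52 SE, edgeR adjusted p = 0.063). In Scr+Cy against Scr the block moved it from -0.53 ± 0.51, adjusted p = 0.54, to -0.56, adjusted p = 5.5e-08.

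Slc16a1, which encodes MCT1 and lies at chr3:104638664-104658462 on the plus strand, behaved differently from Slc16a3. It read 24.9, 21.2, 29.1 and 32.5 CPM in Scr, 20.3, 22.2, 27.1 and 25.1 CPM in ZIP and 2.39, 4.95, 4.58 and 6.32 CPM in OE. The highest OE library stood well below the lowest library of the other lines. Under cytokines the levels were 27.04, 23.1, 25.8 and 29.98 CPM in Scr+Cy, 19.4, 22.3, 23.6 and 23.1 CPM in ZIP+Cy and 3.65, 6.98, 7.55 and 5.01 CPM in OE+Cy. Treated and untreated libraries overlapped in all 3 lines. Slc16a1 was 5.91-fold lower in OE (log2 fold change -2.56 ± 0.21 SE, edgeR adjusted p = 2.1e-10), and no cytokine comparison was called, with differences of -0.02 ± 0.18 in Scr, -0.10 ± 0.18 in ZIP and 0.35 ± 0.22 in OE. Ldhb, the heart-type subunit, stayed at 3.68 ± 0.439 CPM in Scr, 4.00 ± 0.255 in ZIP and 4.03 ± 0.815 in OE. It fell in Scr+Cy (2.89, 2.34, 2.99 and 2.76 CPM, against 4.05, 3.65, 3.94 and 3.07 in Scr; log2 fold change -0.42 ± 0.14 SE, edgeR adjusted p = 0.035) and in ZIP+Cy (3.04, 3.25, 2.80 and 2.97 CPM, against 4.17, 4.16, 3.63 and 4.03 in ZIP; log2 fold change -0.41 ± 0.14 SE, edgeR adjusted p = 0.032). In OE+Cy it read 4.66, 4.06, 4.39 and 3.52 CPM, against 4.74, 4.62, 3.72 and 3.01 in OE, a difference of 0.04 ± 0.13. The Ldhb call in Scr+Cy was lost without any of 5 of the libraries, or without the 3 with fibroblast markers (-0.40). The ZIP+Cy call was lost without any of 6 libraries or without those 3 (-0.38). In both comparisons the groups did not overlap.

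Levels per kilobase of exon allow a rough comparison between genes. The length counts all annotated exons of a gene, which can exceed those of the transcripts expressed. On this scale Ldha stood at 190.5 CPM per kb in Scr, far above Ldhb at 2.34. Slc16a3 at 37.6 stood above Slc16a1 at 6.08. In OE+Cy this order had narrowed: Ldha was at 4.36 CPM per kb, Ldhb at 2.65, Slc16a3 at 2.12 and Slc16a1 at 1.31. Most of the summed level of the lactate genes came from Ldha and Slc16a3. Over Ldha, Ldhb, Slc16a1 and Slc16a3 the sum was 861 ± 426 CPM in Scr, 469 ± 146 in ZIP and 185 ± 101 in OE, and with cytokines 613 ± 340.2, 202 ± 59.8 and 35.7 ± 12.7 CPM in the same lines. Basigin (Bsg), the chaperone that brings these transporters to the membrane, fell in OE+Cy (log2 fold change -0.55 ± 0.10 SE, edgeR adjusted p = 8.6e-05).

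**Figure D2:**
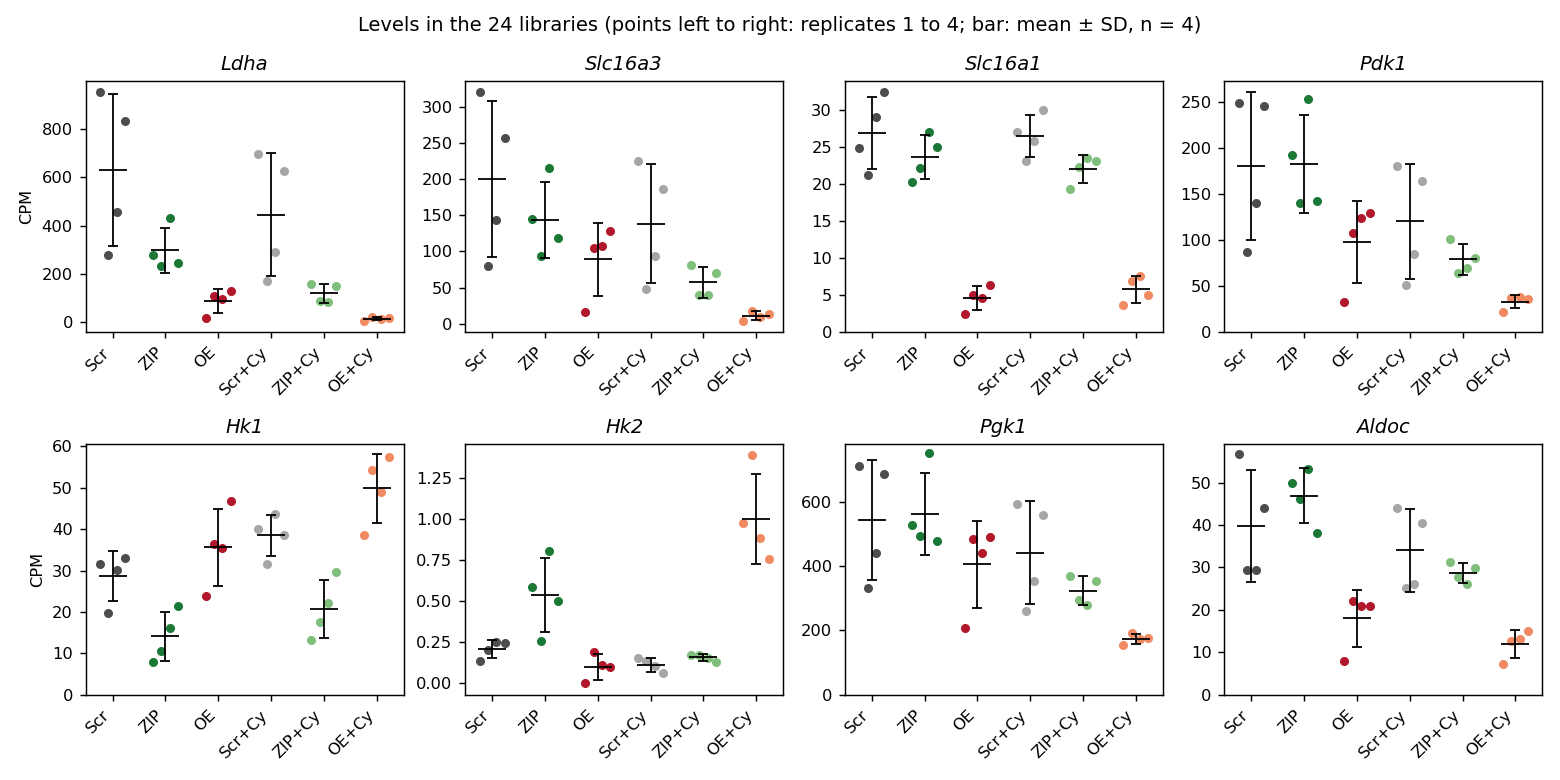
CPM on linear axes in each of the 24 libraries for Ldha, Slc16a3, Slc16a1, Pdk1, Hk1, Hk2, Pgk1 and Aldoc; points are libraries in the order of replicates 1 to 4, and bars give mean ± SD (n = 4). Every OE and OE+Cy library lies below all others for Slc16a1, whereas for Ldha OE 1 sits apart from the other OE libraries at 15.4 CPM.

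Hk1 and Hk2 encode high-affinity hexokinases, and Hk1 was lower in ZIP than in Scr. Hk1 (chr10:62268855-62379908, minus strand) read 31.5, 19.7, 30.2 and 33.05 CPM in Scr, 7.90, 10.7, 16.2 and 21.5 CPM in ZIP and 23.8, 36.4, 35.5 and 46.7 CPM in OE. ZIP and Scr overlapped at 1 library each, ZIP 4 and Scr 2. The cytokine groups held 40.2, 31.6, 43.5 and 38.6 CPM in Scr+Cy, 13.2, 17.5, 22.3 and 29.7 CPM in ZIP+Cy and 38.6, 54.4, 48.9 and 57.5 CPM in OE+Cy. Hk1 was 2.02-fold lower in ZIP than in Scr (log2 fold change -1.02 ± 0.26 SE, edgeR adjusted p = 0.004) and lower in ZIP+Cy than in Scr+Cy (log2 fold change -0.90 ± 0.25 SE, edgeR adjusted p = 0.0091). It was higher with cytokines under all 4 numbers in each line, but was not called in any (0.43 ± 0.25 in Scr, 0.55 ± 0.26 in ZIP, 0.49 ± 0.24 in OE). With the replicate block within the 8 libraries of a line, the values were 0.45 in Scr (adjusted p = 2.6e-05), 0.58 in ZIP (adjusted p = 3.4e-05) and 0.51 in OE (adjusted p = 2.1e-05).

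Hk2 (chr6:82725027-82774454, minus strand) was barely read in most libraries. Its estimated counts were 5, 7, 8 and 8 in Scr, 16, 7, 26 and 15 in ZIP, and 0, 7, 4 and 3 in OE. After cytokines the Scr line had 5, 4, 3 and 2, the ZIP line 5, 5, 4 and 4, and the OE line 28, 41, 28 and 25. In CPM, these were 0.135, 0.201, 0.250 and 0.248 in Scr, 0.585, 0.255, 0.806 and 0.504 in ZIP and 0, 0.190, 0.110 and 0.0982 in OE, then with cytokines 0.154, 0.138, 0.103 and 0.0601, 0.175, 0.173, 0.153 and 0.129, and 0.973, 1.39, 0.884 and 0.759 in the same lines. The OE+Cy libraries lay above those of all other groups except ZIP 3, which was above OE+Cy 4. Hk2 rose in OE+Cy (log2 fold change 3.25 ± 0.49 SE, edgeR adjusted p = 7e-06), fell in ZIP+Cy (log2 fold change -1.75 ± 0.48 SE, edgeR adjusted p = 0.0082) and was higher in ZIP than in Scr (log2 fold change 1.36 ± 0.46 SE, edgeR adjusted p = 0.028). The last call was lost without any of 4 libraries, and with the replicate block within these 8 libraries (1.31, adjusted p = 0.056). With ZIP 3 left out the value was 1.10, and without the 3 libraries with fibroblast markers it was 1.17, not called. These fold changes rest on so few counts that their sizes depend on the small count edgeR adds before taking logs.

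Per kilobase, Hk1 stood at 3.35 CPM per kb in Scr, 1.65 in ZIP and 4.17 in OE, and with cytokines at 4.51, 2.42 and 5.84 CPM per kb in the same lines. Hk2, from 0.0167 in OE to 0.168 CPM per kb in OE+Cy, stood far below Hk1 in every group, as did Hk3 and Hkdc1, which are not among the 38 and reached at most 0.122 and 0.582.

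**Figure D3:**
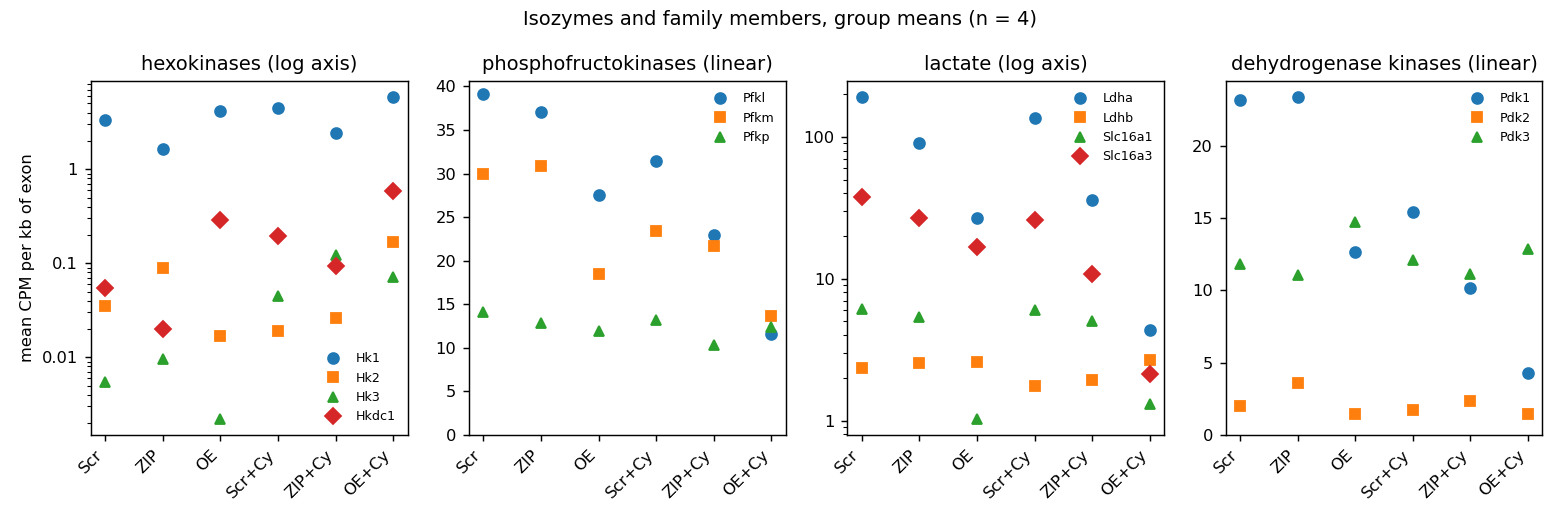
Group means (n = 4) in CPM per kb of exon for Hk1, Hk2, Hk3 and Hkdc1 and the lactate genes on log axes, and for the phosphofructokinases and pyruvate dehydrogenase kinases on linear axes from 0. Ldha drops from 190.5 in Scr to 4.36 CPM per kb in OE+Cy while Ldhb stays between 1.75 and 2.65. On this scale Pfkl and Pdk1 end below their sister genes Pfkm and Pdk3 in OE+Cy, which they do not in CPM.

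The first enzymes of glycolysis, from glucose 6-phosphate isomerase (Gpi1) to triosephosphate isomerase (Tpi1), number 7 among the members. None was called in ZIP against Scr, 3 were lower in OE against Scr (Pfkm, Aldoa and Aldoc), 1 fell in Scr+Cy (Pfkm), 2 in ZIP+Cy (Pfkm and Aldoc) and 5 in OE+Cy (Gpi1, Pfkl, Pfkm, Aldoa and Tpi1), and no member of this group was called higher in these comparisons. In OE+Cy the Aldoa call was lost in 6 of 8 leave-one-out fits, to -0.45 without OE 2, and that of Gpi1 in 3. With OE 1 left out both were called, at -0.745 and -0.842. Pfkm, the muscle-type phosphofructokinase, was called in 4 of the 5 comparisons. It read 99.9 ± 5.72 CPM in Scr, 103 ± 3.90 in ZIP and 61.7 ± 2.59 in OE, and 78.3 ± 5.50, 72.5 ± 3.67 and 45.5 ± 1.54 CPM in the same lines with cytokines. Its libraries agreed closely within each group, and none overlapped between OE and Scr or between a line with and without cytokines. It was lower in OE (log2 fold change -0.69 ± 0.054 SE, edgeR adjusted p = 1.3e-10) and fell in all 3 lines with cytokines, by 0.35 in Scr, 0.51 in ZIP and 0.44 in OE on the log2 scale.

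Among the 5 comparisons the liver-type enzyme Pfkl was called in OE+Cy (log2 fold change -1.26 ± 0.31 SE, edgeR adjusted p = 0.0016), from 81.4, 219, 209.8 and 225 CPM to 62.8, 86.02, 76.7 and 82.1 CPM. OE 1 at 81.4 CPM lay within the range of OE+Cy. Without it the difference was -1.50 ± 0.28, adjusted p = 0.00012. In Scr+Cy the replicate block called a small decrease (-0.33, adjusted p = 5.1e-06, against -0.32 ± 0.30 without the block), and in ZIP+Cy a larger one (-0.65, adjusted p = 0.00061, against -0.69 ± 0.30, adjusted p = 0.098, without it). Pfkp, the platelet type, was called in none of the 5 comparisons, with levels between 138 ± 13.8 CPM in ZIP+Cy and 189 ± 62.7 in Scr. Per kilobase the 3 isozymes, Pfkl (39.2), Pfkm (29.9) and Pfkp (14.1 CPM per kb) in Scr, stood closer together in OE+Cy at 11.5, 13.6 and 12.4. This depends on the annotated exon length, 13401 bases for Pfkp against 3340 for Pfkm. In CPM, Pfkp at 189 stood above Pfkm at 99.9 in Scr, and at 167 above 45.5 in OE+Cy.

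Among the aldolases, Aldoc, the brain-type enzyme, was 2.21-fold lower in OE than in Scr (log2 fold change -1.14 ± 0.26 SE, edgeR adjusted p = 0.00068). Its levels were 56.7, 29.4, 29.3 and 44.04 CPM in Scr, 50.02, 46.2, 53.2 and 38.2 CPM in ZIP and 8.04, 22.1, 21.02 and 20.99 CPM in OE, and no OE library reached a Scr library. With cytokines it read 44.1, 25.2, 26.2 and 40.6 CPM in Scr+Cy, 31.4, 27.8, 26.02 and 29.99 CPM in ZIP+Cy and 7.37, 12.7, 13.1 and 15.1 CPM in OE+Cy. It fell in ZIP+Cy (log2 fold change -0.70 ± 0.25 SE, edgeR adjusted p = 0.043), a call that was lost in 7 of the 8 fits that left out 1 library, all but that without ZIP 4, and was not called in OE+Cy (log2 fold change -0.58 ± 0.27 SE, edgeR adjusted p = 0.088). With OE 1 left out, Aldoc was called lower in OE+Cy than in OE (-0.82 ± 0.23, edgeR adjusted p = 0.0061). Aldoa, the abundant isozyme at 1101 ± 363 CPM in Scr, was lower in OE at 659.8 ± 175 CPM (log2 fold change -0.74 ± 0.23 SE, edgeR adjusted p = 0.0092). Without Scr 1 this value was -0.55, not called.

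The second part of glycolysis, from Gapdh to pyruvate kinase (Pkm), holds 6 members. All 6 fell in ZIP+Cy against ZIP and 5 fell in OE+Cy against OE, where Eno2 was the exception (0.11 ± 0.10). In OE against Scr only Pgam1 was lower, and in ZIP against Scr none was called. Pgk1, phosphoglycerate kinase, the first ATP-making step, read 711, 331, 442 and 686 CPM in Scr, 528, 493, 751 and 478 CPM in ZIP and 206, 485, 441 and 490.4 CPM in OE. The untreated lines overlapped. After cytokines the libraries held 593, 261, 354 and 557 CPM in Scr+Cy, 368, 295, 279 and 355 CPM in ZIP+Cy and 154, 192, 175 and 177 CPM in OE+Cy. All OE+Cy libraries were below all OE libraries, and all ZIP+Cy libraries below all ZIP libraries. Pgk1 fell 2.33-fold in OE+Cy (log2 fold change -1.22 ± 0.27 SE, edgeR adjusted p = 0.00053) and 1.74-fold in ZIP+Cy (log2 fold change -0.80 ± 0.26 SE, edgeR adjusted p = 0.027). The ZIP+Cy call was lost without ZIP 3, ZIP+Cy 2 or ZIP+Cy 3, with values from -0.75 to -0.63.

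Eno1, which encodes the ubiquitous enolase, has a near-identical copy, Eno1b, that is listed separately and took a mean of 19911.7 estimated counts a library, so reads may be split between them and the level of Eno1 alone is uncertain. Eno1 stood at 886, 355, 534 and 730 CPM in Scr, 628, 571, 866 and 524 CPM in ZIP and 222, 516, 464 and 511 CPM in OE. With cytokines it stood at 704, 269.7, 398 and 649 CPM in Scr+Cy, 431, 335, 308 and 415 CPM in ZIP+Cy and 188, 250.4, 208 and 236 CPM in OE+Cy. The ZIP+Cy libraries did not overlap with ZIP, whereas OE 1 lay among the OE+Cy libraries. Eno1 fell in ZIP+Cy (log2 fold change -0.80 ± 0.28 SE, edgeR adjusted p = 0.038) and OE+Cy (log2 fold change -0.96 ± 0.28 SE, edgeR adjusted p = 0.0077), and Eno1b did so by 0.80 and 0.98 on the log2 scale (edgeR adjusted p = 0.04 and 0.0069). The ZIP+Cy call of Eno1 was lost without any of 5 libraries, to -0.63 without ZIP 3. Eno2, the neuronal enolase, fell in Scr+Cy (log2 fold change -0.40 ± 0.10 SE, edgeR adjusted p = 0.0082) and in ZIP+Cy (log2 fold change -0.36 ± 0.10 SE, edgeR adjusted p = 0.011). Gapdh and Pkm fell by 0.42 and 0.34 in ZIP+Cy, calls that were each lost without any of 7 libraries, and by 0.63 and 0.51 in OE+Cy, calls kept in all leave-one-out fits.

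Pgam1, phosphoglycerate mutase, was the only enzyme of this section that was lower in OE without cytokines (log2 fold change -0.89 ± 0.22 SE, edgeR adjusted p = 0.0015), from 1193, 636, 807 and 1207 CPM in Scr to 318, 601, 559 and 601 CPM in OE. The gene lies at chr19:41911871-41918665 on the plus strand. The 83 other genes within 5 Mb of it that had a mean of at least 10 CPM had a median log2 fold change of -0.36 in OE and -0.41 in ZIP, where Pgam1 itself was at -0.34 ± 0.22, not called. The part of this region in the Pgam1 values was not tested.

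Summed over the 13 enzymes from Gpi1 to Pkm, the level was 9489, 4993, 6284 and 8540.3 CPM in Scr, 7236, 6845, 9269.6 and 6261 CPM in ZIP and 3602, 6447, 5878 and 6248 CPM in OE. With cytokines it was 7989, 4205, 5316 and 7508 CPM in Scr+Cy, 5642, 4855, 4751 and 5321 CPM in ZIP+Cy and 3155, 3685, 3299 and 3553 CPM in OE+Cy. Every number gave a lower sum with cytokines in every line, and OE 1 was already close to the OE+Cy libraries before treatment. In OE+Cy against OE, 10 of the 13 enzymes fell and the median log2 fold change was -0.63, beside -0.03 over genes with a mean of at least 10 CPM. In ZIP+Cy against ZIP, 8 fell, with a median of -0.54 beside -0.01. In Scr+Cy against Scr, 2 fell, with a median of -0.30 beside -0.01. With the replicate block within the 8 libraries of a line, 12 of the 13 were called lower in the Scr line, 13 in the ZIP line and 11 in the OE line. The count in ZIP+Cy was sensitive to single libraries: over all 38 members, 15 fell with all libraries, 5 without ZIP+Cy 3, 6 without ZIP+Cy 2, 7 without ZIP 3, 8 without ZIP 1, 9 without ZIP 2 or ZIP+Cy 4, 10 without ZIP+Cy 1 and 13 without ZIP 4.

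**Figure D4:**
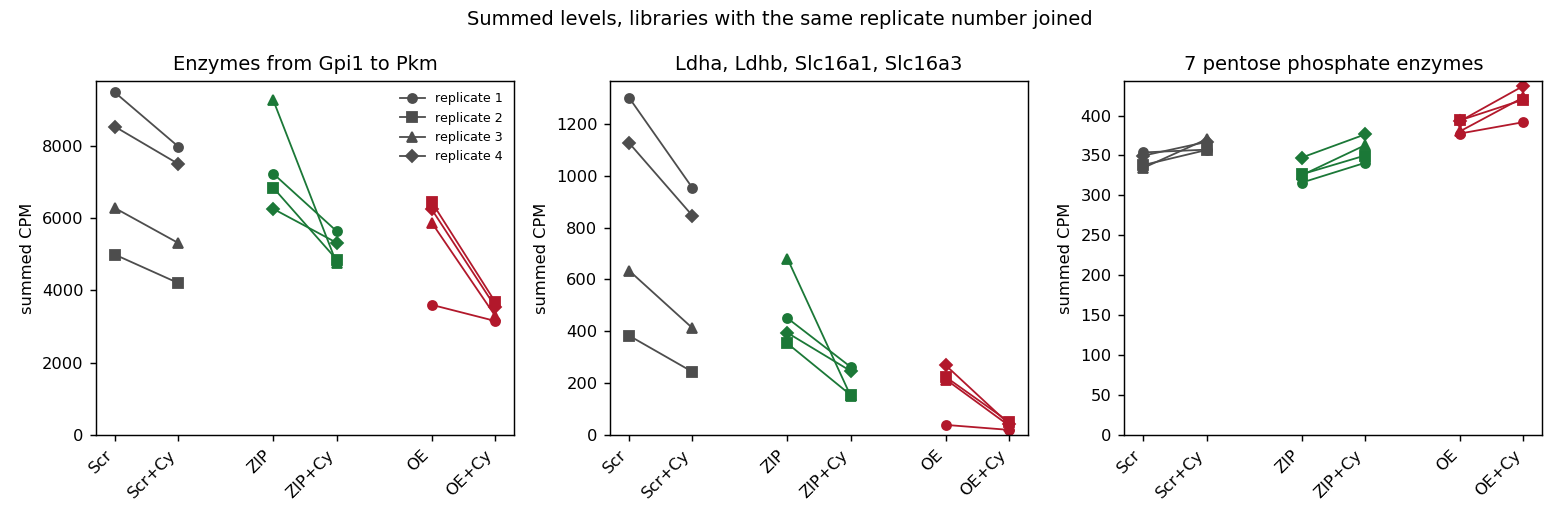
Summed CPM of the 13 glycolytic enzymes, the 4 lactate genes and the 7 pentose phosphate enzymes, on linear axes from 0, with lines joining untreated and cytokine-treated libraries of the same line and replicate number. Lines for glycolysis and lactate genes all run downwards, starting from spread-out levels in Scr, while those for the pentose phosphate enzymes all run upwards.

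The pyruvate dehydrogenase complex, which joins glycolysis to the citric acid cycle, moved little. Its 4 members Pdha1, Pdhb, Dlat and Dld encode the E1 subunits, the E2 core and the E3 enzyme. Their summed level was 376 ± 15.7 CPM in Scr, 407 ± 20.4 in ZIP and 423 ± 6.63 in OE, and 353 ± 11.2, 383 ± 11.3 and 366 ± 7.25 CPM in the same lines with cytokines. Pdhb and Dld were higher in ZIP (0.21 ± 0.051 and 0.16 ± 0.053) and in OE (0.19 ± 0.051 and 0.25 ± 0.053). Around Pdhb and Dld, the other genes within 5 Mb averaging at least 10 CPM had medians of 0.47 and 0.19 in OE. In ZIP these medians were 0.13 and 0.07, and the part of these regions was not tested. Cytokines lowered Pdha1 in Scr (-0.18 ± 0.051), Pdhb in ZIP (-0.18 ± 0.051), and Pdha1, Pdhb and Dld in OE (-0.28 ± 0.051, -0.17 ± 0.051 and -0.26 ± 0.053). None of these calls passed a 1.5-fold change. Dlat was not called in any of the 5 comparisons.

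The kinases that switch this complex off differed from each other. Pdk1 read 248, 86.4, 140.2 and 246 CPM in Scr, 192, 141, 253 and 142 CPM in ZIP and 32.8, 108, 123 and 129 CPM in OE. Under cytokines it read 180.2, 51.5, 84.5 and 164 CPM in Scr+Cy, 101, 64.1, 69.4 and 80.9 CPM in ZIP+Cy and 22.03, 36.8, 37.8 and 35.8 CPM in OE+Cy. The untreated lines overlapped, the ZIP+Cy libraries all lay below ZIP, and OE 1 lay among the OE+Cy libraries. Pdk1 fell 2.30-fold in ZIP+Cy (log2 fold change -1.21 ± 0.38 SE, edgeR adjusted p = 0.022) and 2.97-fold in OE+Cy (log2 fold change -1.57 ± 0.40 SE, edgeR adjusted p = 0.0022; without OE 1, -1.86 ± 0.36, adjusted p = 0.00017). The ZIP+Cy call was lost without ZIP 3, ZIP+Cy 2 or ZIP+Cy 3, to -1.01 without ZIP 3. In Scr+Cy it was -0.58 ± 0.38, not called, and with the replicate block -0.61, adjusted p = 2.3e-08.

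Pdk2 was higher in ZIP at 13.4, 9.99, 13.3 and 8.53 CPM than in Scr at 7.28, 4.94, 5.97 and 6.72 CPM (log2 fold change 0.86 ± 0.16 SE, edgeR adjusted p = 0.00021), and lower in OE at 4.32, 4.52, 4.28 and 5.04 CPM (log2 fold change -0.46 ± 0.17 SE, edgeR adjusted p = 0.025). In ZIP the libraries did not overlap with Scr. The OE call was lost in 5 of the leave-one-out fits, for example without OE 1 (-0.44). With cytokines Pdk2 read 7.33, 4.61, 5.15 and 4.72 CPM in Scr+Cy, 8.45, 8.05, 6.52 and 6.35 CPM in ZIP+Cy and 4.27, 3.79, 5.40 and 4.37 CPM in OE+Cy, and only the decrease in ZIP+Cy was called (log2 fold change -0.62 ± 0.16 SE, edgeR adjusted p = 0.0052). Pdk3 was higher in OE at 37.7 ± 2.06 CPM than in Scr at 30.2 ± 1.58 CPM (log2 fold change 0.32 ± 0.061 SE, edgeR adjusted p = 0.00011). Around Pdk3, the 13 other genes within 5 Mb averaging at least 10 CPM had a median of 0.215 in that comparison. The part of this region was not tested. Pdk4, the kinase that fasting induces in other tissues, had 15 counts in ZIP 1, 14 in Scr+Cy 1, 1 each in OE+Cy 3 and OE+Cy 4, and 0 in the other 20 libraries. ZIP 1 and Scr+Cy 1 were also the libraries with the most fibroblast marker reads. The part of such cells in the Pdk4 reads was not tested.

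Pyruvate carboxylase (Pcx), which is abundant in β cells and feeds pyruvate into the citric acid cycle as oxaloacetate, was lower in OE at 130.3 ± 8.14 CPM than in Scr at 193 ± 14.3 CPM (log2 fold change -0.56 ± 0.071 SE, edgeR adjusted p = 3.6e-07), with no overlap. It fell further in OE+Cy to 108 ± 7.49 CPM (-0.27 ± 0.071) and slightly in ZIP+Cy (-0.20 ± 0.07), the latter call being lost in 6 of the leave-one-out fits and without the libraries with fibroblast markers. Mpc1, a subunit of the carrier that takes pyruvate into mitochondria, read 55.2, 47.9, 52.5 and 56.8 CPM in Scr, 49.8, 50.7, 59.7 and 51.3 CPM in ZIP and 30.4, 35.9, 34.6 and 33.1 CPM in OE. All OE libraries were below all Scr and ZIP libraries. With cytokines its values were 71.6, 78.1, 78.4 and 90.1 CPM in Scr+Cy, 61.7, 68.97, 74.1 and 81.1 CPM in ZIP+Cy and 39.8, 37.5, 34.5 and 34.7 CPM in OE+Cy. Mpc1 was lower in OE (log2 fold change -0.67 ± 0.085 SE, edgeR adjusted p = 4.6e-07) and rose in Scr+Cy (log2 fold change 0.58 ± 0.083 SE, edgeR adjusted p = 1e-05) and ZIP+Cy (log2 fold change 0.43 ± 0.084 SE, edgeR adjusted p = 0.00034), but not with a call in OE+Cy (0.13 ± 0.086). Mpc2, the other subunit of the carrier, was higher in OE (0.27 ± 0.065) and was called in no cytokine comparison of a line.

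Malic enzyme 1 (Me1), which makes cytosolic pyruvate and NADPH from malate, rose with cytokines in every line. Its untreated levels were 67.95, 83.5, 78.01 and 72.04 CPM in Scr, 101, 112, 101 and 127 CPM in ZIP and 72.3, 64.8, 61.9 and 60.6 CPM in OE. After cytokines they were 91.9, 114, 104 and 84.1 CPM in Scr+Cy, 159.7, 176, 164 and 188 CPM in ZIP+Cy and 121, 116, 113 and 104 CPM in OE+Cy, with no overlap with the same line untreated. The log2 fold change was 0.38 ± 0.09 in Scr (edgeR adjusted p = 0.0034), 0.64 ± 0.089 in ZIP (adjusted p = 6.1e-06) and 0.81 ± 0.09 in OE (adjusted p = 8.7e-08). Me1 was also higher in ZIP than in Scr (log2 fold change 0.55 ± 0.09 SE, edgeR adjusted p = 3.9e-05). It lies at chr9:86581363-86695914 on the minus strand, and the 19 other genes within 5 Mb that had a mean of at least 10 CPM had a median log2 fold change of 0.60 in that comparison. The part of this region in the Me1 difference was not tested. In OE it was slightly lower (-0.22 ± 0.09), a call that DESeq2 and 6 of the leave-one-out fits did not keep.

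The NADPH-making enzymes of the pentose phosphate pathway rose with cytokines in all 3 lines. G6pdx, the glucose 6-phosphate dehydrogenase that commits glucose to the pathway, read 37.3, 36.7, 32.9 and 39.8 CPM in Scr, 39.7, 44.8, 41.1 and 47.7 CPM in ZIP and 56.8, 56.3, 53.9 and 55.9 CPM in OE. With cytokines it read 48.8, 53.6, 47.4 and 49.1 CPM in Scr+Cy, 58.7, 62.4, 58.6 and 64.8 CPM in ZIP+Cy and 70.6, 73.1, 69.4 and 69.9 CPM in OE+Cy. In each line the treated libraries all lay above the untreated ones, and the libraries of a group lay close together. G6pdx rose in Scr+Cy (log2 fold change 0.44 ± 0.06 SE, edgeR adjusted p = 5.8e-06), ZIP+Cy (log2 fold change 0.50 ± 0.06 SE, edgeR adjusted p = 6.9e-07) and OE+Cy (log2 fold change 0.34 ± 0.059 SE, edgeR adjusted p = 3.9e-05), and it was higher in OE than in Scr (log2 fold change 0.60 ± 0.06 SE, edgeR adjusted p = 8e-09) and, by less, in ZIP (0.24 ± 0.06). Pgd, the second NADPH-making dehydrogenase of the pathway, rose with cytokines by 0.29 in Scr, 0.34 in ZIP and 0.40 in OE on the log2 scale, from 26.7 ± 1.07, 26.7 ± 2.38 and 28.1 ± 1.06 CPM. All 3 calls for each of G6pdx and Pgd were kept in every leave-one-out fit. Around G6pdx, the 54 other genes within 5 Mb averaging at least 10 CPM had a median log2 fold change of 0.23 in OE. The part of this region in the G6pdx difference between OE and Scr was not tested.

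The enzymes of the non-oxidative branch, which interconvert sugar phosphates, were less uniform. Rpia, ribose 5-phosphate isomerase, rose in OE+Cy (log2 fold change 0.63 ± 0.13 SE, edgeR adjusted p = 0.00026), to 15.3, 23.2, 27.1 and 23.2 CPM from 12.96, 15.9, 14.2 and 14.3 CPM in OE, and was called in no other of the 5 comparisons. OE+Cy 1 lay within the OE range and the other 3 above it. Transketolase (Tkt) was higher in OE (0.20 ± 0.079) and fell in ZIP+Cy (-0.21 ± 0.08), calls that were lost in 4 and 7 of the 8 leave-one-out fits. Transaldolase (Taldo1) was lower in ZIP (-0.16 ± 0.055), lost in 5 of them, and rose in ZIP+Cy (0.19 ± 0.056), lost in 1. Around Tkt, the 45 other genes within 5 Mb averaging at least 10 CPM had a median log2 fold change of 0.19 in OE. The part of this region in the Tkt difference was not tested. Rpe and Pgls, the lactonase, were not called in these 5 comparisons. Summed over the 7 enzymes, the level was 344 ± 9.27 CPM in Scr, 329 ± 13.3 in ZIP and 386 ± 8.53 in OE, and 363 ± 6.82, 357 ± 15.5 and 418 ± 19.02 CPM with cytokines.

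Whether a line changed the response to cytokines was tested as the difference between its response and that of Scr. For ZIP, edgeR called no member in either direction, against 0.0509% of all genes higher and 0.00565% lower, and DESeq2 called none either; at an unadjusted p under 0.05, 1 member passed, the nearly unread Pdk4. For OE, 4 members had a higher and 4 a lower response, against 9.65% and 10.3% of all genes. Both were near the 10.5% of members called on each side. The lower responses were in Slc16a3 (log2 fold change -2.44 ± 0.76 SE, edgeR adjusted p = 0.025), Ldha (log2 fold change -2.10 ± 0.71 SE, edgeR adjusted p = 0.039), Mpc1 (-0.46 ± 0.12) and Dld (-0.27 ± 0.074). Higher ones were found in Hk2 (log2 fold change 4.10 ± 0.71 SE, edgeR adjusted p = 0.00027), Rpia (0.60 ± 0.18), Eno2 (0.51 ± 0.15) and Me1 (0.43 ± 0.13). Library OE 1 bore on this count: without it 10 members had a lower response, Gapdh, Pdk3, Pfkl, Pgam1, Pgk1 and Tpi1 being added. The share of all genes called in that fit is not given here. The Ldha difference was lost in 9 of the leave-one-out fits, with values from -2.46 to -1.80 over all 16, and also in the fit of only the groups compared (-2.13) and in that fit with the replicate block (-2.11). The Slc16a3 difference was lost without OE 4, Scr+Cy 1 or Scr+Cy 4. Without the 3 libraries with fibroblast markers 3 lower responses were called, Ldha being lost at -2.07. The count of lower responses was also 7 without Scr+Cy 2 and 2 without OE 4 or Scr+Cy 4.

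The remaining comparisons set the treated lines against Scr+Cy or Scr and share libraries with those above. In OE+Cy against Scr+Cy, 17 members were lower and 9 higher, against 27.4% and 26.0% of all genes. The largest differences there were in Ldha (log2 fold change -4.95 ± 0.58 SE, edgeR adjusted p = 1.3e-07), Slc16a3 (-3.61 ± 0.59), Hk2 (3.10 ± 0.49) and Slc16a1 (-2.19 ± 0.20). In ZIP+Cy against Scr+Cy, 4 were lower (Hk1, Ldha, Pgam1 and Tkt) and 4 higher (Me1, G6pdx, Dld and Pdhb), against 15.1% and 13.0%, and the fit of these 8 libraries with the replicate block called 12 lower and 6 higher, against 16.3% and 15.9%. Ldha was 3.73-fold lower in ZIP+Cy than in Scr+Cy (log2 fold change -1.90 ± 0.50 SE, edgeR adjusted p = 0.0057), with no overlap. Against untreated Scr, ZIP+Cy had 13 members lower and 6 higher, where 20.4% of all genes were called in each direction, and OE+Cy had 19 lower and 7 higher, against 29.1% and 30.4%. In OE+Cy against Scr, Ldha was at -5.45 ± 0.59 and Slc16a3 at -4.15 ± 0.60. Without Scr 1, ZIP+Cy against Scr had 6 members lower; the count was also 6 without ZIP+Cy 3, 7 without Scr 4 and 8 without ZIP+Cy 2. Without the 3 libraries with fibroblast markers it was 6 in that comparison, 19 in OE+Cy against Scr, 16 in OE+Cy against Scr+Cy and 3 in ZIP+Cy against Scr+Cy.

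A property of these libraries ran through all of the above: several glycolytic genes differed more between libraries of 1 group than most genes did. Within a group, the highest of the 4 libraries was a median of 1.14 to 1.18 times the lowest over the 9738 genes with a mean of at least 10 CPM. For Slc16a3 this ratio was 3.98 in Scr, 2.30 in ZIP and 8.19 in OE, and 4.75, 2.07 and 4.30 in the same lines with cytokines. For Ldha it was 3.43, 1.86, 8.49, 4.10, 1.92 and 3.19 in the same order. Pdk1, Pfkl, Eno1, Pgk1, Aldoc, Tpi1, Aldoa, Pfkp, Gpi1 and Pgam1, with Hk1 and the low-read Hk2 among them, followed with medians over the 6 groups from 2.34 down to 1.70. At the other end stood Dlat, Pdhb, Pdha1, Taldo1, Dld, Pfkm, Mpc2 and G6pdx, with medians of 1.07 to 1.12.

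The swing was shared. Over 16 genes, the 13 enzymes from Gpi1 to Pkm with Ldha, Slc16a3 and Pdk1, Scr 1 was the highest Scr library for 15 and Scr 2 the lowest for 13. Scr+Cy 1 was the highest for 16 and Scr+Cy 2 the lowest for 15. ZIP 3 was the highest ZIP library for 14, ZIP+Cy 1 the highest of its group for 14, and OE 1 the lowest OE library for 16. In OE+Cy, library 1 was the lowest for 12. Slc16a3, Ldha and Pdk1 had the widest spread of the members, so this list was not free of the spread it describes. Of 15 genes outside the 38 that are known to respond to the hypoxia-inducible factor HIF-1, Scr 2 was the lowest Scr library for 12, Scr+Cy 2 the lowest of its group for 14, OE 1 the lowest OE library for 13, and ZIP 3 the highest ZIP library for 13. Scr 1 and Scr+Cy 1 were the highest of their groups for 4 and 3 of them, and Scr 4 and Scr+Cy 4 for 10 and 11. For neither list is the share over all genes given, and the part of HIF-1 in the spread was not tested. As examples chosen after their values were seen, Bnip3, a mitophagy receptor, read 334, 111, 209 and 329.8 CPM in Scr and 34.8, 166, 186 and 207 CPM in OE, and Slc2a1, the glucose transporter GLUT1, 90.6, 50.3, 65.5 and 103 and 28.8, 86.9, 70.9 and 74.9 CPM.

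**Figure D5:**
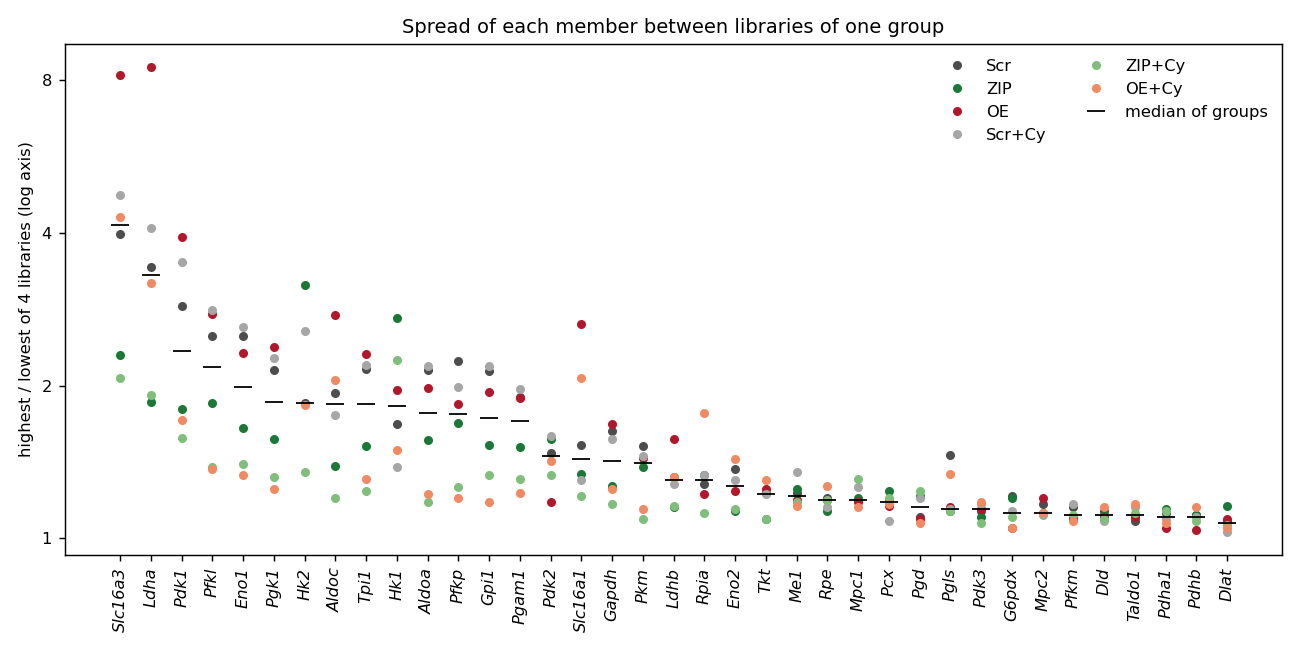
Highest over lowest CPM among the 4 libraries of each group, on a log axis, for the 37 members with reads, sorted by the median over the groups (short bars); where a library held no read the group is left out. Slc16a3 and Ldha reach 8.19 and 8.49 in OE, while Dlat, Pdhb and Pdha1 stay at or under 1.16 in every group.

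The promoters of Ldha, Slc16a3, Pgk1 and Slc16a1, chosen after their values were seen, are shown because HIF-1 is known to bind sites with the core ACGTG. In the 250 bases before the annotated starts (RefSeq, GRCm38.p6), ACGTG on either strand stood in 16.6% of 32851 windows of all genes and in 16 of the 55 windows of the 38 members, or 29.1%. The related core GCGTG stood in 28.2% of all windows and in 50.9% of the members' windows. Of 55 windows, that of Ldha held the most copies of ACGTG, 5 counted over both strands, so that each CACGTG counts on both; 0.502% of all windows held at least 4. The other window of Ldha held 0. Of the 12 members besides the hexokinases with a median ratio of highest over lowest library of at least 1.70, 5 held ACGTG in some window (Ldha, Slc16a3, Pgk1, Aldoa and Pgam1) and 7 in none (Pdk1, Pfkl, Eno1, Aldoc, Tpi1, Pfkp and Gpi1). Of the 8 with the smallest ratios 2 held it (Pfkm and Pdhb), and Pcx, also steady, held 3 copies. Each window reads 5′ to 3′ towards the start, ACGTG and its reverse complement CACGT in capitals. The first is chr7:46845554-46845803, the second chr11:120948817-120949066, the third chrX:106186850-106187099 and the last chr3:104638414-104638663, all on the plus strand. The Slc16a3 window lies inside the gene span given above, which begins at 120948484, so it precedes an annotated start within the gene.
Ldha: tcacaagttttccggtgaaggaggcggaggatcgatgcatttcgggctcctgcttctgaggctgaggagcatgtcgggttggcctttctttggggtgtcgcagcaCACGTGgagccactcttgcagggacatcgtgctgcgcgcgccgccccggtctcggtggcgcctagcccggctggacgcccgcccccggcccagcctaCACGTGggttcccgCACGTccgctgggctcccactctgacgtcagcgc
Slc16a3: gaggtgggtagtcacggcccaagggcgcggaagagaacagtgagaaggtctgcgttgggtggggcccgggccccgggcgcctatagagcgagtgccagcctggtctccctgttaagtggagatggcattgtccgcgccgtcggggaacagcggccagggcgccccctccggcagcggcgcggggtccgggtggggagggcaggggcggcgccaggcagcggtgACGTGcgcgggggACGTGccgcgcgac
Pgk1: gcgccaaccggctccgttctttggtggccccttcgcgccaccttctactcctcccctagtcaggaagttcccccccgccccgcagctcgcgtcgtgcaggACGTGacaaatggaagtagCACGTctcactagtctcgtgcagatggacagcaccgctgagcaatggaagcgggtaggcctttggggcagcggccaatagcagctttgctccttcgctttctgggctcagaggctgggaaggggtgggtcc
Slc16a1: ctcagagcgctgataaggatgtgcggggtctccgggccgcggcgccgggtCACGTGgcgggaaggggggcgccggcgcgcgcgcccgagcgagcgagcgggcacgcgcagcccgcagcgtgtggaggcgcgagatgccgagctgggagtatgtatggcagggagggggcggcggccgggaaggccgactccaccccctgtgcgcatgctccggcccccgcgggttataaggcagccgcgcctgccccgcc
Slc16a1, with a median ratio of highest over lowest library of 1.43 and of 2.65 in OE, held 2 copies like Slc16a3 and Pgk1. No binding was measured, and the matches describe these letters only.

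Other genes of the pathway, taken from lists of known roles, gave the surroundings. Of 26 other genes of glycolysis and glucose entry in the table, 6 were higher and 3 lower in ZIP, and 7 and 7 in OE. With cytokines the counts were 3 and 3 in the Scr line, 4 and 5 in the ZIP line, and 5 and 7 in the OE line. Over all genes, 13.5% were higher and 14.8% lower in ZIP, and 24.5% and 25.6% in OE. With cytokines these background shares were 10.5% and 7.33% in the Scr line, 13.6% and 12.8% in ZIP, and 23.0% and 21.5% in OE. The 26.9% of the 26 genes on each side in OE were near the background. The glucose transporter GLUT2 (Slc2a2), which admits glucose to mouse β cells, was higher in ZIP (2.54 ± 0.26) and was called higher in OE too. Its level was 4.17 CPM per kb in Scr, 24.4 in ZIP and 16.1 in OE, and it fell in OE+Cy (-1.31 ± 0.25). Pfkfb3, which makes the activator fructose 2,6-bisphosphate, was lower in ZIP (-1.56 ± 0.35) and rose in OE+Cy (1.26 ± 0.33). Fructose bisphosphatase (Fbp1), of gluconeogenesis, was lower in ZIP (-1.57 ± 0.24) and in OE (-4.23 ± 0.28). Liver-type pyruvate kinase (Pklr) rose in OE+Cy (1.17 ± 0.15). Of 26 other genes of pyruvate metabolism and the NADH shuttles, 4 were higher and 7 lower in ZIP, 4 and 12 in OE, and with cytokines 1 and 7 in the Scr line, 1 and 6 in the ZIP line, and 5 and 12 in the OE line. Gpd1, of the glycerol phosphate shuttle, was higher in OE (2.66 ± 0.22), as was the aspartate-glutamate carrier Slc25a13 (7.34 ± 0.27), read at 14.9 ± 0.844 CPM in OE and at 0.0865 ± 0.0427 in Scr. Among the 12 genes of this list called lower in OE were Gpd2, Slc25a12, Got1, Got2 and Slc16a7. Of 5 other pentose phosphate genes, H6pd, the enzyme of the endoplasmic reticulum, was lower in OE (-1.62 ± 0.083).

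Among 18 other genes that mature β cells keep low, 2 were higher and 3 lower in ZIP. These were 11.1% and 16.7%, against 13.5% and 14.8% of all genes. In OE 4 were higher and 5 lower, or 22.2% and 27.8%, near the 24.5% and 25.6% of all genes. Maf was higher (4.99 ± 1.28) and Nfib lower (-4.52 ± 0.18) there. With cytokines 1 rose and 0 fell in Scr, 1 rose and 1 fell in ZIP, and 2 rose and 1 fell in OE. The chemokine Cxcl12 was higher in all 3 lines. Over all genes the shares that rose and fell were 10.5% and 7.33%, 13.6% and 12.8%, and 23.0% and 21.5% in the same order. Of 15 HIF-1 responsive genes outside the 38, cytokines lowered 2 in the Scr line, 7 in the ZIP line and 8 in the OE line. These were 13.3%, 46.7% and 53.3% of the list, against 7.33%, 12.8% and 21.5% of all genes. The medians were -0.38, -0.73 and -0.59. These counts come from the fit without a replicate block, and counts with the block are not given for this list. For the ZIP minus Scr response, 0 of the 15 were called in either direction, against 0.0509% of all genes higher and 0.00565% lower. Bnip3 fell in ZIP+Cy (-1.17 ± 0.42) and OE+Cy (-2.20 ± 0.44), while Pfkfb3 was the only one to rise in OE+Cy. In OE against Scr 4 were lower, led by Egln3, an oxygen-sensing prolyl hydroxylase (-2.96 ± 0.26), and 2 higher, Adm and Ndrg1. These shares, 26.7% and 13.3%, stand against 25.6% and 24.5% of all genes. All 10 proliferation genes fell in OE+Cy, with a median of -0.69, beside the decrease of the glycolytic genes. In that comparison 11 of 15 β cell markers fell as well, against 21.5% of all genes. The part of either list in the members' values was not tested. All 6 cytokine response genes, among them Cxcl10, Gbp2 and Nos2, rose in all 3 lines.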

How the data were processed

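The authors sequenced poly(A) RNA libraries as paired ends, checked them with FastQC, aligned them with STAR to mm10 and quantified genes against RefSeq transcripts in Partek Flow. Genes with fewer than 10 reads in all were removed by the authors. The submitters' processing notes list STAR 2.7.8a and Partek 11.0.24.0204. The deposited values are estimated counts, since 30.301% of them (48.246% of the members') were not whole, and they were rounded before fitting. The deposited normalized values, which are these estimated counts divided by a factor for each library and are a signal set by the authors, were used only to check this. Such quantification can divide reads between near-identical genes, and strand use was not given in the sources used here.

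A mean for each of 6 groups was fitted to 24 libraries over 17696 genes in edgeR 4.0.16 (R 4.3.3) with TMM scaling, quasi-likelihood F tests and Benjamini-Hochberg adjustment. Levels are CPM after TMM, and CPM per kb uses the summed exon length of GENCODE M21 (GRCm38). The members and lists were chosen with earlier results of these data known. Members given library by library were Ldha, Slc16a1, Hk1, Hk2 and the 3 largest called differences of each of the 5 comparisons, and those given so beside them were chosen after their values were seen. The fits were tested on simulated data. Results for 1 withheld gene are not reported here. Alternatives were DESeq2 1.42.0, its size factors, the filterByExpr filter, only the groups compared, a replicate block, the fold and p limits of the study, and leaving out each library. Same-numbered libraries deviated together, with every correlation over 0.1 across 12670 genes, in ZIP and Scr (0.141 to 0.634), Scr+Cy and Scr (0.413 to 0.626), ZIP+Cy and ZIP (0.261 to 0.397), OE+Cy and OE (0.162 to 0.455) and ZIP+Cy and Scr+Cy (0.191 to 0.37), and not in OE and Scr (-0.129 to 0.295). That pairing comes from the labels and the data. The sample titles give libraries of the same number a shared code in all 6 groups, and nothing says what a number or code stands for.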

Additional observations from a re-analysis of the deposited data

Results flagged for a closer look

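In 225 groups of 4 libraries checked, 1 per member and group, 15 had a library whose gap to the nearest of the others passed the 95% critical value for 4 samples, as a share of the range of the group, and chance gives about 1 in 20 such groups. OE 1 was the low library for Gpi1 (160.0 CPM), Pfkl (81.4), Pfkp (101), Aldoc (8.04) and Pgam1 (318), OE+Cy 1 for Pdk1 (22.0 CPM) and Scr 1 for Pdhb (82.1 CPM). ZIP 3 was the high library for Tpi1 (991 CPM), Gapdh (493) and Mpc1 (59.7), ZIP 4 for Dlat (82.6 CPM), ZIP+Cy 1 for Pfkm (78.0 CPM), Scr 1 for Pgls (37.5 CPM), and ZIP 1 and Scr+Cy 1 for Pdk4 (0.549 and 0.431 CPM).

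The cytokine response differed between OE and Scr by an interaction term in edgeR for 8 members. On each side these were 10.5% of the members, near the 9.65% higher and 10.3% lower of all genes. On the log2 scale the difference was 4.10 for Hk2, 0.60 for Rpia, 0.51 for Eno2, 0.43 for Me1, -0.27 for Dld, -0.46 for Mpc1, -2.10 for Ldha and -2.44 for Slc16a3.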

How the results depend on the processing

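The 5 comparisons and the others gave 162 calls of members, of which 116 were kept under every setting other than the limits of the study, and none changed direction. DESeq2 kept 161, its size factors in edgeR 161, filterByExpr 162, fitting only the groups compared 155, and leaving out the 3 libraries with fibroblast markers 137; leaving out 1 library kept 1179 of 1360. The replicate block over all 24 libraries lost no call, and among counts it gave 3 lower in ZIP against Scr, 17 lower in ZIP+Cy against ZIP and 0 for ZIP minus Scr. Fitted within the groups compared, the replicate block gave 4 lower members in ZIP against Scr, 19 in Scr+Cy against Scr and 12 in ZIP+Cy against Scr+Cy; the paired fits changed no other count by over 1.5 times. In OE against Scr, where libraries of the same number did not all deviate together, the block within 8 libraries lost Tkt.

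With the study's limits, a change of at least 1.5-fold at an unadjusted p under 0.05, the members higher were 3 in ZIP against Scr, 1 in OE against Scr, 0 in Scr+Cy against Scr, 1 in ZIP+Cy against ZIP, 3 in OE+Cy against OE, 1 in ZIP+Cy against Scr+Cy, 3 in OE+Cy against Scr+Cy, 2 in ZIP+Cy against Scr, and 2 for the response of OE minus Scr. In OE+Cy against Scr, 5 were higher. Those lower were 2 in ZIP against Scr, 9 in OE against Scr and 0 in Scr+Cy against Scr. They were 10 in ZIP+Cy against ZIP, 10 in OE+Cy against OE, 4 in ZIP+Cy against Scr+Cy and 15 in OE+Cy against Scr+Cy. Against Scr, 8 were lower in ZIP+Cy and 15 in OE+Cy, and the response of ZIP minus Scr had 1. Shares of all genes at these limits are not given here. At the adjusted p limit without the 3 libraries with fibroblast markers, 1 was lower in ZIP against Scr and 6 in ZIP+Cy against Scr.

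Leaving out 1 library at a time gave 1 to 2 lower members in ZIP against Scr, 5 to 13 in ZIP+Cy against ZIP and 6 to 16 in ZIP+Cy against Scr, 2 to 4 higher in ZIP+Cy against Scr+Cy, and 2 to 4 higher and 2 to 10 lower for the response of OE minus Scr. Small or absent calls of Ldha, Slc16a3 and the glycolytic enzymes stand beside a wide spread between libraries, whereas depth limits Hk2 and Pdk4, which had at most 41 counts in a library.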
